A study of Homo sapiens with 12 samples.

Results

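Histones are the small basic proteins that package DNA. The core histones H2A, H2B, H3 and H4 form the nucleosome, and H1 binds the linker DNA between nucleosomes. Most are made from many near-identical, intronless genes in clusters, which are transcribed in S phase when new DNA has to be packaged. Their mRNAs are unusual because they normally end in a short stem-loop, bound by the protein SLBP, in place of a poly(A) tail. Some of these genes can also give longer, polyadenylated transcripts, and the poly(A)-selected libraries described here would capture such transcripts.

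The 47 genes described here were taken by symbol. They are the rows of the expression table whose name begins with H1, H2AC, H2BC, H3C or H4C followed by a number, without pseudogenes, out of 17013 genes in the table. They comprise 5 H1, 9 H2A, 14 H2B, 7 H3 and 12 H4 genes, and 37 of them lie on chromosome 6 and 7 on chromosome 1. The annotation (GENCODE release 44) lists 73 protein-coding genes with such names, so that 26 were not analysed here. The libraries came from HCC1806, a basal-like triple-negative breast cancer cell line. Cells were transfected with a non-targeting siRNA (siNT) or with a pool of siRNAs against the kinase MLK4 (siMLK4), and then received vehicle, or 1 μM of doxorubicin for 24 h. Doxorubicin is an anthracycline that damages DNA. Each of the 4 groups (siNT vehicle, siNT doxorubicin, siMLK4 vehicle and siMLK4 doxorubicin) had 3 libraries. The control treatment is labelled DMSO, whereas the methods of the study describe untreated cells. It is called vehicle here. The sample titles mark the vehicle libraries t0 and the doxorubicin libraries t24. A supplementary figure legend of the study gives 24 h of treatment for DMSO as well as for doxorubicin. By that legend both arms had the same treatment time, and the meaning of t0 in the titles is not explained there. The pool was not resolved into single siRNAs, and the methods of the study say that transfections were done in triplicate without saying whether on separate days, so the p-values measure the spread between these libraries of 1 cell line.

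The libraries held between 16759025 and 19302248 reads in the table's genes, and values are given as normalized reads, that is reads divided by the size factor of the library. MAP3K21, which encodes MLK4, had 554.2, 671.0 and 675.0 normalized reads with siNT and vehicle, and 103.4, 94.85 and 88.83 with siMLK4 and vehicle. With doxorubicin it had 759.2, 857.9 and 773.1 with siNT, and 113.0, 138.7 and 94.55 with siMLK4. The targeted gene matched the siRNA label of each library. It fell by 2.24 (SE 0.12) on the log2 scale with vehicle and fell by 2.37 (SE 0.12) with doxorubicin. Keratins of the basal layer were abundant, such as KRT5 with a mean of 20920 normalized reads in siNT vehicle cells, whereas ESR1 had a mean of 92.9 and PGR no read in any vehicle library.

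The label of replication-dependent cluster genes was checked by the stem-loop. A stem-loop that matched the consensus of histone mRNAs exactly lay within 150 bases after the stop codon in 45 of the 47 genes (95.7%), starting 23 to 58 bases after it, and in 28 of 19877 other protein-coding genes (0.141%), of which all but BTBD10 carry histone names. The stem-loops are shown because they are the feature that sets these mRNAs apart. They are read from hg38 as DNA on the strand of the gene, with the stem in capitals and the loop in lower case. The first form below was found in 23 members of the H1, H2A, H2B and H3 classes, the second in 8 H4 genes, the third in 6 H2B and H3 genes and the fourth in 4 H4 genes.
H3C10, chr6:27810516-27810531: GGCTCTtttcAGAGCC
H4C8, chr6:26285131-26285146: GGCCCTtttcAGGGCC
H2BC11, chr6:27132321-27132336: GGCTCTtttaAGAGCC
H4C12, chr6:27831178-27831193: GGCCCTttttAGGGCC
H2AC11, chr6:27133515-27133530: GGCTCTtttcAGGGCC
H2AC15, chr6:27837885-27837900: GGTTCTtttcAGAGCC
H3C6, chr6:26225596-26225611: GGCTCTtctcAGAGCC
H2AC20, chr1:149887391-149887406: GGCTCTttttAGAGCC
The last 4 of the 8 forms were found in a single member each. The stem of H2AC11, the gene with the largest log2 difference with doxorubicin in siNT cells, had a 5′ arm like that of the H2A, H2B and H3 genes and a 3′ arm like that of the H4 genes.

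The promoters differed by histone class. RefSeq promoters (GRCh38.p14) were matched for 44 of the 47 genes, and 250 bases before the start were searched. The octamer ATTTGCAT, searched on both strands, was present in 6 of 9 H2A and 10 of 14 H2B promoters and in none of the 4 H1, 6 H3 and 11 H4 promoters. It was present in 36.4% of the 44 and in 1.63% of all 35116 promoters. For 8 pairs of neighbouring H2A and H2B genes, with starts 170 to 248 bases apart, the 2 windows overlap. A single octamer can therefore be counted for both genes of a pair, and so in both classes. The 120 bases printed below hold an octamer for H2BC11 and none for H2AC11. The CCAAT box, also searched on both strands, was present in 9 of 9 H2A, 14 of 14 H2B, 6 of 6 H3, 3 of 4 H1 and 2 of 11 H4 promoters, with shares of 77.3% of the 44 and 32.0% of all promoters. The letters TATAAA, searched on the strand of the gene, were present in 52.3% and 6.80%. The 3 stretches below are the 120 bases before the start of H2AC11 and H2BC11, which are transcribed away from each other with 248 bases between their starts, and of H3C10, which was called in 4 comparisons below. Motif matches are in capitals (CCAAT boxes also as their complement ATTGG).
H2AC11, plus strand, chr6:27132923-27133042: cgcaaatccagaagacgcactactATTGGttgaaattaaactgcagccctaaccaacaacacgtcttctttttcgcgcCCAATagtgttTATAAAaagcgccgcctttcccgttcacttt
H2BC11, minus strand, chr6:27132796-27132915: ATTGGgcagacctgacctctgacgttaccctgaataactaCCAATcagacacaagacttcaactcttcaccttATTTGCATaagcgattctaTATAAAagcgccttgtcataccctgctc
H3C10, plus strand, chr6:27809931-27810050: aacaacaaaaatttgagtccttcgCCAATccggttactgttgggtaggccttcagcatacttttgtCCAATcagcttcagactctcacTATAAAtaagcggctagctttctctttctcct
A match is a description of the letters in these windows, and binding was not measured.

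The level of the members differed widely. Per kilobase of annotated exon, the mean over all libraries was lowest for H4C15, at 5.57 normalized reads, and the median was 45.6. H2BC12 (1085) and H1-2 (1031) were the most abundant stem-loop genes per kilobase, followed by H2AC11 (424.6) and H4C3 (415.8), and H3C10 (258.5) led the H3 class. Annotated exons beyond the stem-loop lengthen 16 of the genes, and their level per kilobase is lowered accordingly. Many members were close to the detection limit. In 25 of them at least 1 library had under 10 reads, and 6 had at most 3 reads in each siNT vehicle library. The highest group mean of any gene in the table was never below 10.69, and 11 members had a highest group mean under 20, which for 9 of these was the siMLK4 doxorubicin group. Such genes could be in the table because of the group in which they were high, so the counts below describe the measured members and give no support beyond the single tests. Sequence was shared with other genes in stretches of 50 bases for over 10% of the transcript in 13 members. These were H4C14 and H4C15 (97.6% and 100%), H4C11 and H4C12, H2AC13 and H2AC14, the overlapping genes H2AC17 and H3C12, and H2BC12, H2BC18, H2AC20, H2BC13 and H2BC17. Their values are uncertain, since reads may have been split between or lost from such copies.

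Doxorubicin was followed by higher levels of core histone genes in siNT cells. Of the 47 members, 23 were called higher and 0 lower, where a call needs an adjusted p below 0.01 in limma and a difference above 0.75 on the transformed log2 scale of the deposited table. Across all genes tested 12.1% were called higher and 10.6% lower. The median difference of the members was 0.74 (range −0.25 to 2.32) against 0.005 for all genes, and 42 were above 0. This scale compresses low values, and the median ratio of the group means on the scale of normalized reads was 2.82, with the 6 genes that had at most 3 reads in each vehicle library computed against 3 reads per library. In 37 members the 3 doxorubicin libraries all lay above the 3 vehicle libraries, as in 32% of all genes. The members called by class were 6 of 9 H2A, 9 of 14 H2B, 4 of 7 H3, 3 of 12 H4 and 1 of 5 H1 genes. Leaving out each library in turn kept 20 of the 23 calls in every fit. The 3 others (H1-2, H2AC13 and H4C15) were lost in fits without siNT vehicle replicate 2 or 3 or siNT doxorubicin replicate 1 or 2, with differences of 0.73 to 0.96 and adjusted p of 0.0015 to 0.021 in limma.

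**Figure D1:**
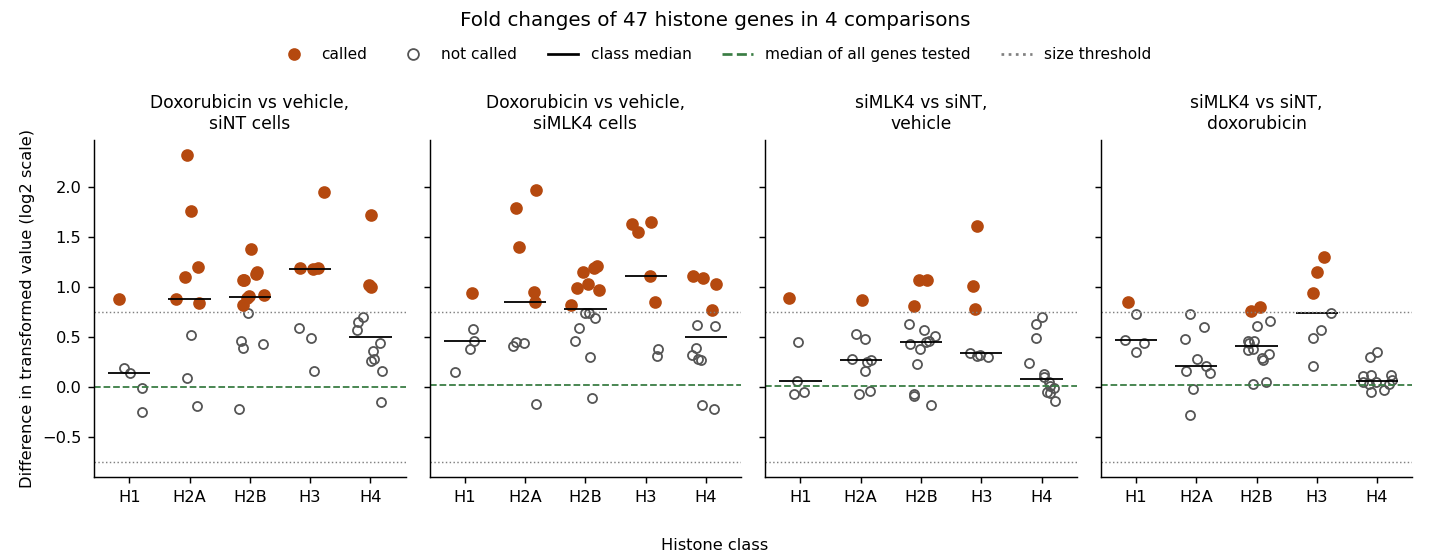
Difference of each of the 47 genes on the transformed log2 scale (vertical axis) by histone class (horizontal axis) in 4 comparisons. Filled points were called, bars are class medians, the dashed line is the median of all genes tested and dotted lines mark the size threshold of 0.75. No filled point lies below 0, and H1 and H4 genes make up few of the filled points.

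Among the H2A genes, which encode a partner of H2B in the nucleosome, H2AC11 moved most. In siNT cells it gave 41.2, 39.5 and 54.0 normalized reads without the drug, and 430.9, 459.0 and 324.1 after it, a 9.01-fold higher mean (log2 difference 2.32, SE 0.15, adjusted p = 7.3e-08 in limma). The groups lay far apart, and the lowest doxorubicin library was still well above the highest vehicle library. H2AC25, a gene on chromosome 1, had 109.4, 63.5 and 67.5 against 492.9, 323.4 and 339.3 (4.81-fold, log2 difference 1.77, SE 0.20, adjusted p = 7.1e-06). Replicate 1 was the highest in both of its groups. H2AC6 (2.34-fold, 1.11), H2AC8 (4.38-fold, 1.20), and H2AC13 (4.85-fold, 0.84) also rose, as did H2AC17 (0.88), which had 0, 1.04 and 0 normalized reads with vehicle and 16.7, 9.18 and 13.2 with doxorubicin. H2AC20 had 11.8, 13.5 and 8.999 with vehicle and 9.25, 6.12 and 6.10 with doxorubicin, in overlapping groups. Its log2 difference was −0.19 (SE 0.11, adjusted p = 0.15 in limma). The 250 bases before the start of H2AC20 held all 3 motifs searched, but the nearest 120 held no octamer. The 250 bases reach into the promoter of its neighbour H2BC21, whose nearest 120 bases hold an octamer.

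Among the H2B genes H2BC8 had the largest difference. H2BC8 had 69.4, 71.8 and 67.5 normalized reads with vehicle and 289.4, 269.3 and 212.3 with doxorubicin in siNT cells (3.69-fold, log2 difference 1.38, SE 0.16, adjusted p = 7.7e-06). The vehicle libraries differed by a few reads, and each doxorubicin library was clearly above them. H2BC21 (3.33-fold), H2BC7 (6.97-fold), H2BC11 (3.85-fold), H2BC18 (4.94-fold), H2BC5 (2.26-fold), H2BC4 (2.82-fold), H2BC15 (2.96-fold) and H2BC26 (3.91-fold) also rose, with log2 differences from 0.82 to 1.15. H2BC12 was just outside the size threshold at 0.74 and H2BC26 just inside it at 0.82. H2BC13 went the other way without passing the test (log2 difference −0.22, SE 0.14, adjusted p = 0.21).

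The H3 genes started from low levels and had the highest class median, 1.18. H3C10 had 56.5, 34.3 and 29.3 normalized reads with vehicle and 332.0, 266.2 and 237.7 with doxorubicin (6.96-fold, log2 difference 1.96, SE 0.17, adjusted p = 6.4e-07). No library of one group came near the other. H3C1 had 3.53, 2.08 and 4.50 with vehicle and 49.0, 42.8 and 34.5 with doxorubicin (12.5-fold, log2 difference 1.19, SE 0.11, adjusted p = 1.3e-06). It was almost absent before the drug, and its fold rests on few vehicle reads. H3C8 (7.29-fold, 1.18) and H3C6 (3.31-fold, 1.19) also rose.

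The H4 genes differed in the size of their change. Of the 12, 3 were called and 11 had a difference above 0 in siNT cells. In 10 of them the doxorubicin libraries all lay above the vehicle libraries, as in 32% of all genes. H4C8 had 105.9, 109.2 and 113.6 normalized reads with vehicle and 461.4, 542.7 and 420.6 with doxorubicin (4.33-fold, log2 difference 1.72, SE 0.13, adjusted p = 1.4e-07). Its replicates were tight and the groups did not overlap. H4C14 (4.88-fold, 1.01) and its near-identical copy H4C15 (1.03) also rose, but their reads cannot be told apart in full. H4C15 had 0, 0 and 2.25 normalized reads with vehicle and 8.32, 37.7 and 16.3 with doxorubicin. H4C3, the most abundant H4 gene per kilobase, had 228.3, 151.9 and 144.0 with vehicle and 163.7, 113.2 and 178.8 with doxorubicin. These groups overlapped, with a log2 difference of −0.15 (SE 0.24, adjusted p = 0.61). The class median was 0.51.

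Among the linker histones the genes differed too. H1-2 had 464.8, 349.5 and 348.7 normalized reads with vehicle and 897.0, 701.8 and 677.6 with doxorubicin (1.96-fold, log2 difference 0.88, SE 0.22, adjusted p = 0.0037 in limma). H1-10 had a log2 difference of −0.25 (SE 0.18, adjusted p = 0.26). H1-3 and H1-5 had means under 10 normalized reads in both siNT groups.

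In siMLK4 cells doxorubicin was followed by a response of similar size. Of the 47 members, 22 were called higher and 0 lower, where 12.6% of all genes tested were called higher and 10.6% lower. The median difference was 0.74 (range −0.22 to 1.97) against 0.018 for all genes, and the median ratio of group means was 2.64 with 3 such genes computed in that way. The doxorubicin libraries all lay above the vehicle libraries in 40 members, as in 33.4% of all genes. Leaving out each library in turn kept 19 of the 22 calls. H2AC17, H3C2 and H4C5 were lost without siMLK4 vehicle replicate 2 or 3 or siMLK4 doxorubicin replicate 1 or 2, with differences of 0.69 to 0.74.

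The genes that led in siNT cells were high here too. H2AC11 had 55.2, 62.9 and 63.9 normalized reads with vehicle and 357.7, 376.8 and 246.4 with doxorubicin (5.39-fold, log2 difference 1.79, SE 0.15, adjusted p = 6.2e-07 in limma). H2AC25 had 106.4, 110.8 and 192.8 against 755.4, 711.1 and 540.0 (4.89-fold, log2 difference 1.97, SE 0.20, adjusted p = 2.8e-06). Neither gene had overlapping groups, although siMLK4 vehicle replicate 3 stood above the other vehicle libraries for H2AC25. H3C1 had 9.04, 7.99 and 8.67 with vehicle and 100.3, 111.1 and 82.7 with doxorubicin (11.5-fold, log2 difference 1.64, SE 0.11, adjusted p = 1.1e-07). H3C10 had 184.7, 179.7 and 264.3 with vehicle and 813.2, 848.9 and 630.9 with doxorubicin (3.65-fold, log2 difference 1.65, SE 0.17, adjusted p = 2.7e-06). Both H3 genes had their highest library in siMLK4 doxorubicin replicate 2 and no overlap between the groups. H3C8 (5.30-fold, 1.55), H2AC8 (4.48-fold, 1.40) and H2BC7 (5.18-fold, 1.22) followed.

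In all, 18 members were called with doxorubicin in both siRNA backgrounds, 5 in siNT cells alone (H1-2, H2AC6, H2BC5, H2BC15 and H2BC21) and 4 in siMLK4 cells alone, among them H2BC9, H3C2 and H4C5. The vehicle and doxorubicin groups of these 2 comparisons are separate libraries. The difference between the responses was itself tested. It was called for 0 of the 47 members in limma, where 0.0999% of all genes tested were called higher and 0.176% lower in siMLK4 cells, and at an unadjusted p below 0.05 it took in 7 members (2469 of all genes). Limma-voom on the recovered reads also called 0. H4C8 had the lowest adjusted p (0.10), with a log2 response that was lower by 0.63 (SE 0.18) in siMLK4 cells.

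**Figure D2:**
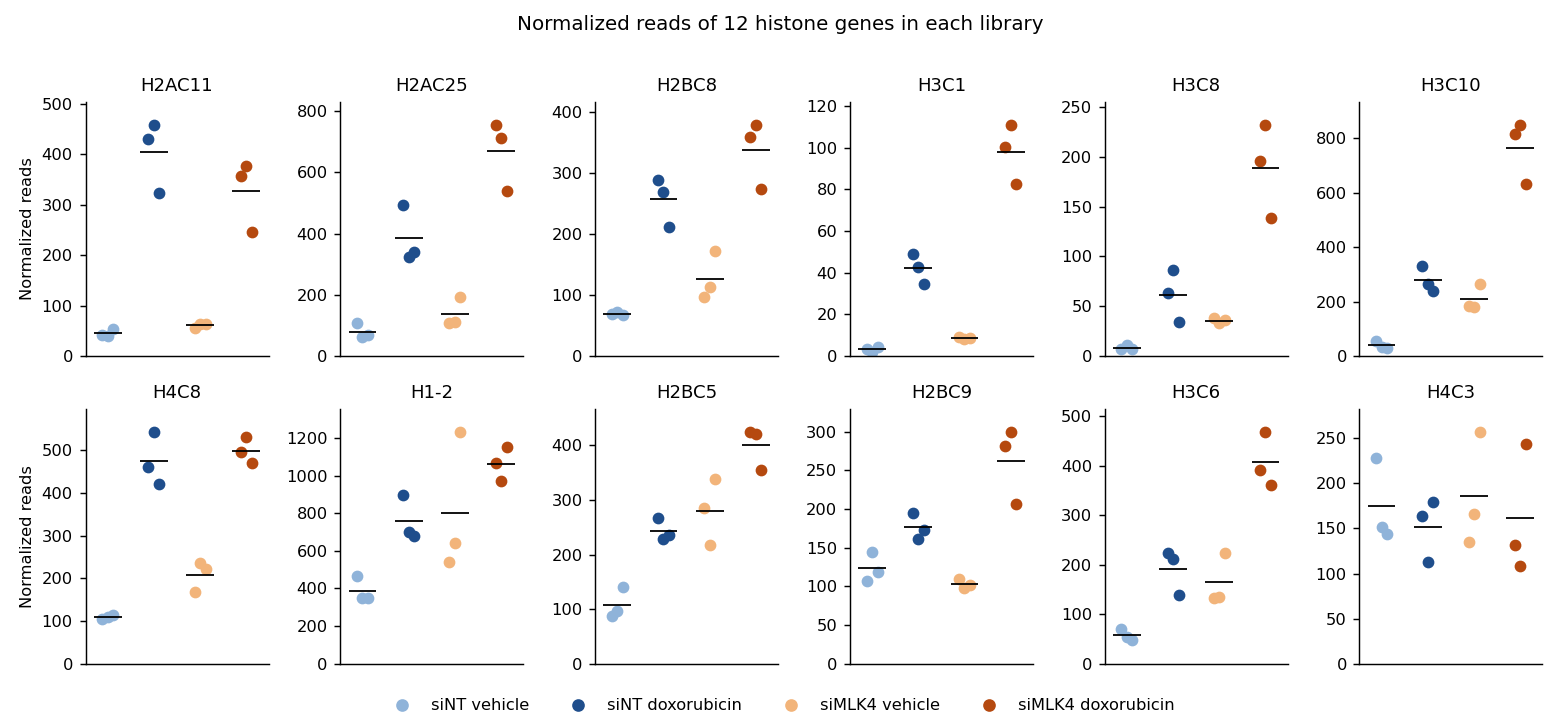
Normalized reads (vertical axis, from 0, scaled per panel) of 12 histone genes in each of the 12 libraries, coloured by group, with bars at the group means. H2AC11, H2AC25, H3C1, H3C8, H3C10 and H4C8 have doxorubicin libraries above the vehicle libraries of the same siRNA, and H4C3 has overlapping groups.

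MLK4 knock-down with vehicle was accompanied by higher levels of fewer members. Of the 47, 8 were called higher and 0 lower, where 2.51% of all genes tested were called higher and 3.14% lower. The median difference was 0.31 (range −0.18 to 1.61) against 0.012 for all genes, on the scale that compresses low values. The median ratio of group means on normalized reads was 1.66, with 6 genes computed against 3 reads per library. On log2(normalized reads + 1) the median difference was 0.82 and 15 members were called, where 5.26% of all genes were called higher. The siMLK4 libraries all lay above the siNT libraries in 23 members, as in 19.7% of all genes. The 8 were H3C10, H2BC5, H2BC21, H3C6, H1-2, H2AC6, H2BC12 and H3C8. H3C10 had the largest difference, with 184.7, 179.7 and 264.3 normalized reads in siMLK4 cells against 56.5, 34.3 and 29.3 in siNT cells (5.24-fold, log2 difference 1.61, SE 0.17, adjusted p = 1.7e-05 in limma). H2BC5 had 285.1, 216.7 and 338.0 against 87.1, 95.7 and 140.6 (2.60-fold, log2 difference 1.08, SE 0.16, adjusted p = 0.00022). H2BC21 had 146.6, 128.8 and 164.7 against 38.8, 51.0 and 51.8 (3.11-fold, log2 difference 1.08, SE 0.14, adjusted p = 0.00011). The groups did not overlap for these genes, and each siMLK4 library of H2BC21 was far above its siNT libraries. No H4 gene was called, and 8 of the 12 H4 differences were above 0. On the transformed scale the largest was that of H4C8 (0.70, SE 0.13, adjusted p = 0.0011 in limma), just outside the size threshold. On normalized reads H4C12, a gene near the detection limit, had a larger ratio. Its mean was 1.89 with siNT and 11.7 with siMLK4, without overlap (log2 difference 0.63, SE 0.13, adjusted p = 0.0032 in limma).

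Single libraries bore on this comparison. Library siMLK4 vehicle replicate 3 was the highest of its group for 31 of the 47 members (42% of all genes). For H1-2, siMLK4 vehicle replicate 3 had 1231 normalized reads against 539.1 and 642.0 in the other 2 libraries of its group, and without siMLK4 vehicle replicate 3 the H1-2 difference fell from 0.89 to 0.55 (adjusted p = 0.017 in limma). Without siMLK4 vehicle replicate 3, 5 members were called in this comparison. In that fit H2AC6 had a difference of 0.68 (adjusted p = 0.0021) and H3C8 of 0.78 (adjusted p = 0.014). H3C8 and H1-2 were close to the threshold in general, since H3C8 was kept in 6 and H1-2 in 2 of the 12 fits that leave out a library, with H3C8 differences of 0.75 to 0.85 and adjusted p of 0.012 to 0.020 where it was lost. H2BC12 was lost without siNT vehicle replicate 1 (0.68). H3C10, H2BC5, H2BC21 and H3C6 were called in each of the 12 fits. In a fit of the 2 groups alone, 3 members were called, where 1.48% of all genes were called higher. H2BC5 and H3C6 were among those lost, with the same differences of 1.08 and 1.01 (adjusted p = 0.011 and 0.014 in limma).

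MLK4 knock-down with doxorubicin gave 6 members called higher and 0 lower, where 2.66% of all genes tested were called higher and 2.93% lower. The median difference was 0.35 (range −0.28 to 1.31) against 0.023, 43 of the 47 differences were above 0, and the siMLK4 libraries all lay above the siNT libraries in 28 members, as in 22.8% of all genes. The median ratio of group means on normalized reads was 1.51. On log2(normalized reads + 1) the median difference was 0.57 and 8 members were called, where 4.03% of all genes were called higher. The 6 were H3C10, H3C8, H3C6, H1-10, H2BC26 and H2BC6. H1-10 had no stem-loop of the histone type, and 5 of the 45 genes with one were called. H3C10 had 813.2, 848.9 and 630.9 normalized reads in siMLK4 cells against 332.0, 266.2 and 237.7 in siNT cells (2.74-fold, log2 difference 1.31, SE 0.17, adjusted p = 0.00012 in limma). H3C8 had 195.4, 232.3 and 138.2 against 62.9, 86.7 and 34.5 (3.07-fold, log2 difference 1.16, SE 0.18, adjusted p = 0.00044). For both the groups were apart, with replicate 3 the lowest of each. H3C6 was 2.13-fold higher (0.94), H1-10 1.85-fold (0.85), H2BC26 2.47-fold (0.80) and H2BC6 2.17-fold (0.76). H3C10 and H3C8 kept their calls in each of the 12 fits that leave out a library. Library siMLK4 doxorubicin replicate 2 was the highest of its group for 31 of the 47 members (41.1% of all genes). Without siNT doxorubicin replicate 3 the count was 3, and without siMLK4 doxorubicin replicate 2 it was 2, with differences of 0.72 to 0.89 for the 4 genes lost in one fit or another. These were H1-10 (also lost without siNT doxorubicin replicate 2 and siMLK4 doxorubicin replicate 1), H2BC26 (also without siMLK4 doxorubicin replicate 1), H2BC6 (without siNT doxorubicin replicate 2 and siMLK4 doxorubicin replicates 2 and 3) and H3C6. H2AC11 was the member with the lowest value in this comparison, at −0.28 (SE 0.15, adjusted p = 0.21).

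The 3 members called in all 4 pairwise comparisons were the H3 genes H3C6, H3C8 and H3C10. The comparisons share groups of libraries, so these calls are not independent. H3C6 had means of 57.7 ± 11.5, 191.0 ± 46.2, 164.2 ± 52.0 and 406.8 ± 55.1 normalized reads (SD, n = 3) in siNT vehicle, siNT doxorubicin, siMLK4 vehicle and siMLK4 doxorubicin. The middle groups overlapped, and siMLK4 doxorubicin was above every other library. The siMLK4 doxorubicin group had the highest mean in 40 of the 47 members (29.8% of all genes) and siNT vehicle the lowest in 34 (29.3%), with both true of 31 (20.2%). In 17 members no pairwise comparison was called, as in 66% of all genes.

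Summed over genes, the stem-loop members followed the same order. The 45 genes had 2347, 2090 and 2203 normalized reads in siNT vehicle, 6526, 5907 and 5180 in siNT doxorubicin, 3656, 3744 and 5267 in siMLK4 vehicle, and 8843, 9207 and 7714 in siMLK4 doxorubicin. The siNT vehicle libraries were the lowest and the siMLK4 doxorubicin libraries the highest, whereas siNT doxorubicin and siMLK4 vehicle overlapped. The ratio of means was 2.65 for doxorubicin in siNT cells, 2.03 for doxorubicin in siMLK4 cells, 1.91 for knock-down with vehicle and 1.46 for knock-down with doxorubicin. Without siMLK4 vehicle replicate 3, the ratios that use it were 2.32 for doxorubicin and 1.67 for knock-down. By class the ratio for doxorubicin in siNT cells was 5.01 for H3, 3.49 for H2A, 2.38 for H4 and 2.29 for H2B. For knock-down with vehicle it was 3.67 for H3, 1.86 for H2B, 1.84 for H2A and 1.39 for H4. These sums were not tested. In bulk RNA, fewer cells that express a gene and less RNA per cell cannot be told apart.

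**Figure D3:**
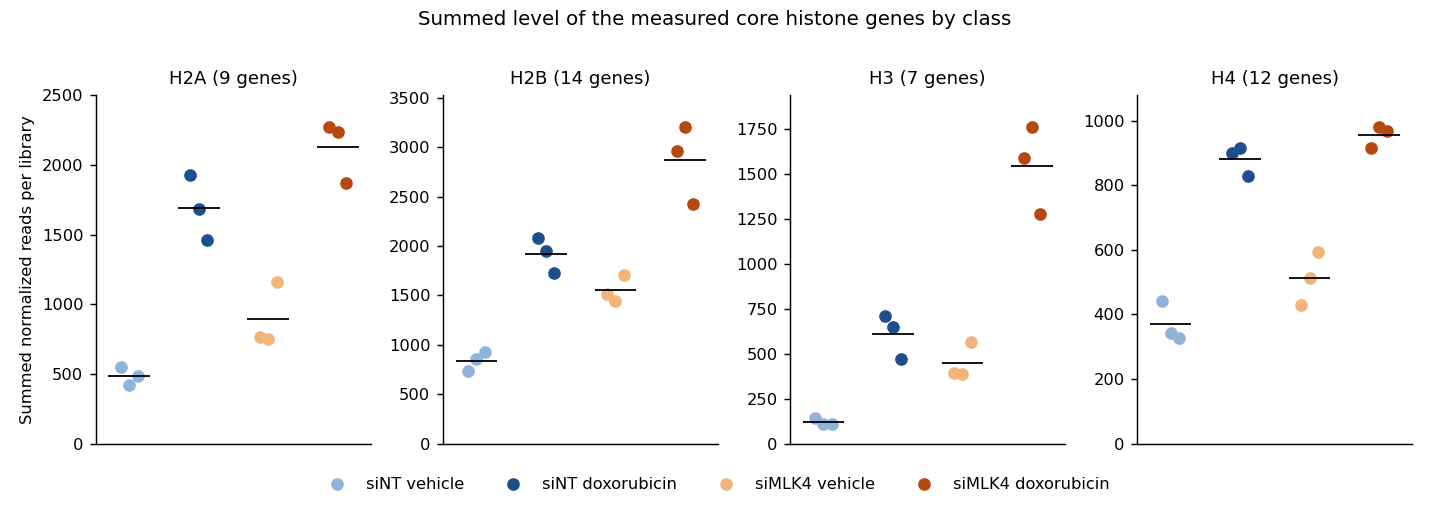
Summed normalized reads (vertical axis, from 0, scaled per panel) of the measured H2A, H2B, H3 and H4 genes in each library, with bars at the means of the 4 groups. The H3 sum differs most between groups in proportion, with a ratio of 5.01 for doxorubicin in siNT cells.

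Transcript structure was set beside the responses. In 29 of the 45 stem-loop genes the annotated transcripts end at the stem-loop, and in 16 some extend past it by more than 50 bases. Of these 16, 15 carry a poly(A) signal in the last 50 bases. With doxorubicin in siNT cells 14 of the 16 and 9 of the 29 were called higher, with medians of 1.05 and 0.49. In siMLK4 cells the counts were 10 of 16 and 11 of 29, with medians of 0.98 and 0.46. With knock-down and vehicle they were 5 of 16 and 3 of 29, and with knock-down and doxorubicin 4 of 16 and 1 of 29. Over all genes 12.1%, 12.6%, 2.51% and 2.66% were called higher in these 4 comparisons, so that the 1 of 29 is near the share of all genes. The extended genes also had more reads, with a median of 82.3 normalized reads against 14.0, and the level of a gene bears on whether it is called. Their part in this difference was not tested. H2AC11, H3C1 and H3C8 were among the 9 genes called in siNT cells whose annotation ends at the stem-loop. Where the transcripts in these libraries ended was not measured.

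**Figure D4:**
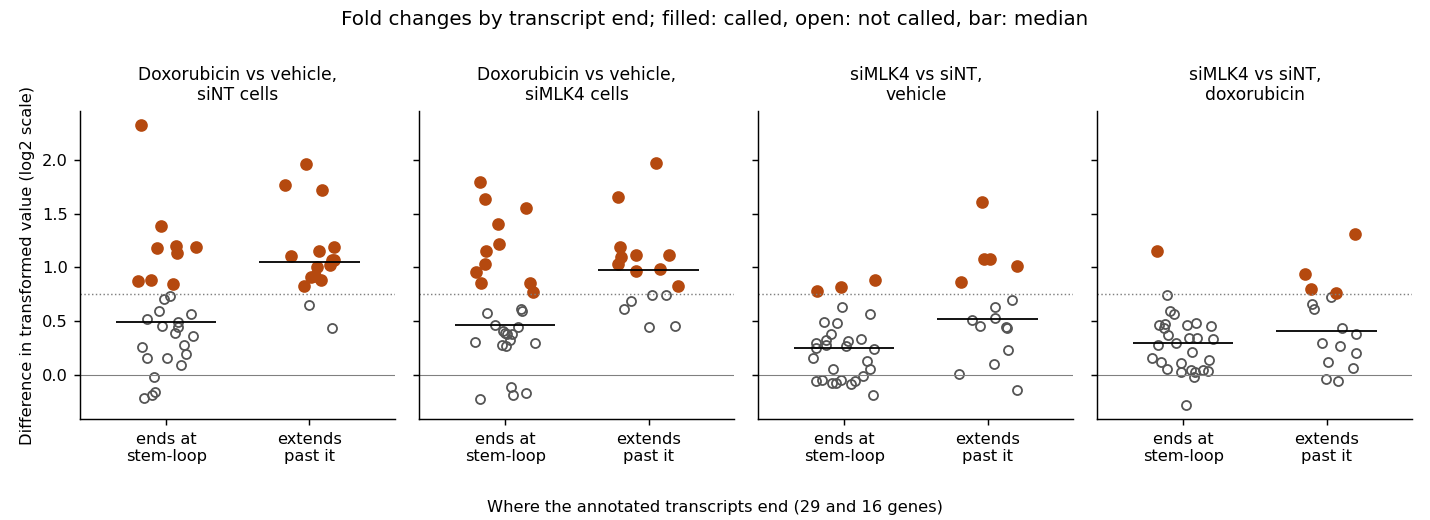
Difference on the transformed log2 scale (vertical axis) of the 45 stem-loop genes in 4 comparisons, split by whether the annotated transcripts end at the stem-loop (29 genes) or extend past it (16 genes). Filled points were called and bars are medians. The extended genes have the higher median in each panel, and both sets hold called genes.

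Neighbouring genes did not always respond alike. In 9 places a pair of members is transcribed away from a shared region with starts less than 1000 bases apart, and 8 of these pairs join an H2A and an H2B gene. H2BC17 is in 2 of the pairs. With doxorubicin in siNT cells both genes were called in 4 pairs, 1 gene in 4 and none in 1. H2BC21 rose (1.15) while its partner H2AC20 had −0.19, and H2AC13 rose (0.84) while H2BC13 had −0.22. H2BC8 and H2AC8 (1.38 and 1.20), H2BC4 and H2AC6 (0.91 and 1.11), H2BC11 and H2AC11 (1.07 and 2.32), and H2AC25 and H2BC26 (1.77 and 0.82) were called together. In siMLK4 cells both were called in 3 pairs, 1 in 3 and none in 3.

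Genes left out by the naming rule gave values of the same kind. H2BC20P and H2BC19P, which are named as pseudogenes, had 91.8, 68.7 and 91.1 and 73.0, 114.4 and 131.6 normalized reads in siNT vehicle, and 565.0, 707.9 and 408.4 and 664.9, 725.2 and 519.2 in siNT doxorubicin. Both rose, by 2.19 and 2.16 on the log2 scale (SE 0.23 and 0.20, adjusted p = 3e-06 and 1.2e-06 in limma). Of the 5 pseudogenes in the table, 3 were called higher with doxorubicin in each background, where 12.1% (siNT) and 12.6% (siMLK4) of all genes were. H1-12P and H2AC10P, with at most 2 reads in each siNT vehicle library, were not called in either. Among 220 other single-exon protein-coding genes, 46 were called higher and 10 lower with doxorubicin in siNT cells (median 0.28), where 12.1% and 10.6% of all genes were. Of 23 small nuclear, nucleolar and related RNAs, which also lack a poly(A) tail, 4 were called higher and 0 lower (median −0.03). Of the 23 differences 11 were above 0. The 4 called were RNU4-1, RNU4-2, RNU1-28P and SCARNA21. They had at most 2 reads in each siNT vehicle library, and means of 41.95, 32.61, 10.61 and 19.83 normalized reads with doxorubicin. In siMLK4 cells 4 were also called higher and 0 lower (12.6% and 10.6% of all genes). Carry-over of RNA without a poly(A) tail was not measured in other ways.

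The replacement histones, whose genes are expressed outside S phase and mostly have introns, moved in both directions. Of 9 measured, 3 were called higher and 2 lower with doxorubicin in siNT cells, and 2 and 1 in siMLK4 cells. Of all genes 12.1% were called higher and 10.6% lower with doxorubicin in siNT cells, and 12.6% and 10.6% in siMLK4 cells. H2AJ rose from 998.5 ± 212 to 3962 ± 701 normalized reads (SD, n = 3, log2 difference 1.94), and H3-3B, which encodes H3.3, rose by 0.85. H2AX, the variant that is phosphorylated at DNA breaks and has a stem-loop of the histone type as well, fell from 1269 ± 303 to 326 ± 69.0 (log2 difference −1.79, SE 0.17, adjusted p = 1.2e-06 in limma). The 6 H2A cluster genes called with doxorubicin in siNT cells were called higher. With knock-down it was higher, by 0.95 with vehicle and 1.05 with doxorubicin. CENPA, the centromeric H3 variant, fell by 0.98 in siNT cells.

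Factors that make or degrade histone mRNA were mostly not called. Of 22 genes for histone transcription and 3′ end processing, 3 were called higher and 1 lower with doxorubicin in siNT cells (12.1% and 10.6% of all genes), and 2 and 1 in siMLK4 cells (12.6% and 10.6%). SLBP, which binds the stem-loop, had means of 1352 ± 268, 1114 ± 81.5, 1369 ± 117 and 1131 ± 108 normalized reads (SD, n = 3) in the order of groups used above, and NPAT, the cyclin E-CDK2 target that activates histone genes, 921.9 ± 225, 1051 ± 136, 888.9 ± 249 and 1203 ± 169. Neither was called in any comparison. The groups of NPAT overlapped in each comparison, and those of SLBP in all but doxorubicin in siMLK4 cells (log2 difference −0.27, SE 0.14, adjusted p = 0.11 in limma). HINFP, a factor that binds H4 promoters, rose by 0.81 in siNT cells, CASP8AP2 rose by 1.07 in siMLK4 cells, and LSM10, a subunit of the U7 particle that cuts histone pre-mRNA, fell by 1.09 and 1.02 in siNT and siMLK4 cells. With knock-down 2 were called higher and 1 lower with either treatment (2.51% and 3.14% of all genes with vehicle, 2.66% and 2.93% with doxorubicin), the lower one being SRRT (−1.25 and −1.48). The 2 higher ones were CCNE1 and CCNE2, which are also in the list of S phase genes below, so that their calls are counted in both lists. Of 17 genes for histone mRNA decay, 0 were called higher and 3 lower in siNT cells, where LSM2 fell by 1.58, TUT4 by 0.85 and LSM7 by 0.79. In siMLK4 cells 0 and 2 were called. With knock-down 0 were called with vehicle, and DCP2 alone was called (0.78) with doxorubicin.

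Of 42 genes of S phase and replication, 7 were called higher with doxorubicin in siNT cells (12.1% of all genes) and 1, the cyclin gene CCNA2 (−0.88), was called lower (10.6% of all genes). In siMLK4 cells 9 and 0 were called (12.6% and 10.6% of all genes), and the medians were 0.14 and 0.25. With knock-down and vehicle the median was −0.09 and 27 of the 42 differences were below 0, beside a median of 0.31 for the histone members. GINS4, a subunit of the replicative helicase, rose by 1.62 and 1.87, and E2F2, an S-phase transcription factor, by 1.35 and 1.74. CCNE1, which encodes the cyclin E1 that drives S-phase entry, rose in all 4 comparisons (1.22, 1.46, 0.90 and 1.14), and CCNE2 rose in 3 of them, most with knock-down and vehicle (1.48). With knock-down 2 were called higher with vehicle and 4 with doxorubicin (2.51% and 2.66% of all genes), and 0 lower. The part of the cell cycle distribution in the histone values was not tested, since it was not measured in these libraries.

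Of 24 histone chaperones, 3 were called higher and 1 lower with doxorubicin in siNT cells, where 12.1% and 10.6% of all genes were, and 2 and 1 in siMLK4 cells, where 12.6% and 10.6% were. The counts called higher were near or below the share over all genes. ASF1B, which carries H3 and H4 to replicating DNA, rose by 1.95 and 2.08, and SSRP1, a subunit of the FACT complex, fell by 1.01 and 1.13. With knock-down 0 were called higher and 1 lower with vehicle (2.51% and 3.14% of all genes), and 1 and 1 with doxorubicin (2.66% and 2.93%). Of 20 cleavage and polyadenylation factors, CSTF3 and CSTF2T were called higher with doxorubicin in both backgrounds (CSTF3 1.46 and 1.16), and 0 lower. With knock-down NUDT21, a subunit that governs the choice of poly(A) site, fell by 0.95 and 0.91 and was the single gene called. Of 12 reference genes, 0 were called higher and 2 lower in each background with doxorubicin, among them ACTB (−1.21 and −1.04), and 0 with knock-down.

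Markers of the cell line changed as well. Of the 8 basal epithelial markers, 0 were called higher and 5 lower with doxorubicin in each background, and 2 and 3 were called lower with knock-down. Across all genes 12.1% and 12.6% were called higher with doxorubicin in siNT and siMLK4 cells, and 10.6% lower in each. For knock-down with vehicle and with doxorubicin, 2.51% and 2.66% of all genes were called higher and 3.14% and 2.93% lower. KRT14 was lower in all 4 comparisons. Of the 3 receptors that define the triple-negative class, PGR was called higher with doxorubicin in both backgrounds, at 18.5, 12.2 and 9.14 normalized reads in siNT cells, and ESR1 was called lower in siMLK4 cells. Of 4 fibroblast, 3 immune and 2 endothelial markers, 1 each was in the table. The fibroblast marker COL1A1 had 321.2, 271.5 and 267.7 in siNT vehicle, 284.8, 263.2 and 255.0 in siNT doxorubicin, 514.0, 497.2 and 578.5 in siMLK4 vehicle and 395.1, 344.2 and 479.1 in siMLK4 doxorubicin, and was called higher with knock-down and vehicle. The immune marker PTPRC had 2.35, 6.24 and 7.87, then 21.3, 19.4 and 20.3, then 0, 2.00 and 3.25, and then 11.9, 20.9 and 20.9 in the same groups, and was called higher with doxorubicin in siMLK4 cells. The endothelial marker VWF was not called and had at most 67.3. The part of these markers in the histone values was not tested.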

How the data were processed

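Poly(A)-selected RNA of HCC1806 cells was sequenced in 12 libraries, 3 per group. After quality trimming (Trimmomatic 0.39), the authors aligned the reads by HISAT2, dropped optical duplicates and assigned the rest to genes by strand (HTSeq 0.6.0). The authors deposited values on a log2 scale, which have the form of the variance-stabilising transformation of DESeq2 1.26.0. Versions are those of the submitters' processing notes. The methods name GRCh38 and the submitters' processing notes hg19. The table gives gene identifiers without coordinates, so positions were taken from GENCODE release 44 (hg38) and promoters from RefSeq. Every value column was mapped to a sample (0 unmapped).

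Inverting the transformation gave whole reads within 0.05 for 100% of values in each library, with size factors of 0.85 to 1.197, and normalized reads were computed from these. The table held no gene with a highest group mean under 10.69 normalized reads, and depth limits precision for genes near that level.

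Differences were tested on the deposited values with limma 3.58.1 (R 4.3.3), with 4 group means over all 12 libraries, a mean-variance trend, 5 comparisons and Benjamini-Hochberg adjustment over 17013 genes, two-sided. Genes were called at an adjusted p below 0.01 and a difference above 0.75. On simulated data for doxorubicin in siNT cells over 17013 genes, 72.12% of genes changed 2-fold and 95.83% of those changed 4-fold were called, and 0 of 16813 unchanged genes. The changed genes were drawn from those with a mean above 20 normalized reads. Every gene was given the same extra spread between replicates. The shares called therefore do not cover members with lower levels, and false calls of more variable genes were not simulated. Ratios of group means were computed on normalized reads, and summed levels, over the genes with a stem-loop, have no test. Tables were made with Python 3.11.15 (pandas 2.3.3).

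Genes named are MAP3K21, members called in any comparison (at most 30), the most abundant core histone gene of each class, H1-10, SLBP and NPAT, and from each gene list at most the 6 called genes with the largest difference. H2AC20, H2BC13, H2AC15, H3C12 and other members named for their sequence, their neighbour or a low value were chosen after their values were seen. One item that the rule names is not reported here. The members and lists were chosen with earlier results of these data known. Replicate numbers shared by the groups were checked by the correlation of deviations from group means. It was 0.46, 0.105 and 0.205 for doxorubicin in siNT cells and 0.19, 0.516 and 0.559 for knock-down with doxorubicin, each above a limit of 0.1. It was −0.0774, 0.176 and 0.337 for doxorubicin in siMLK4 cells and −0.723, 0.325 and −0.523 for knock-down with vehicle, not all above that limit. Deviations cancel out within a group, so the 3 values of a comparison are not independent. They cannot show whether libraries of the same number were paired. Alternatives were limma-voom on the recovered reads, a pseudocount of 1 read, other scalings, a filter of 10 reads, a replicate block, only the groups compared, another threshold and leaving out each library. The split by transcript end, the sets of other genes and the restriction to a mean of at least 50 normalized reads were added after seeing the data.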

Additional observations from a re-analysis of the deposited data

How the results depend on the processing

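No called difference of a named gene changed its direction under the alternatives run. The number of members called higher with doxorubicin in siNT cells was 23, and was 33 with log2(normalized reads + 1), 35 with library totals as scaling on that same log2 scale, 15 when every library had to hold 10 reads or more of a gene, which leaves 22 members, and 36 at an adjusted p below 0.05 alone. In siMLK4 cells it was 22, and 13 with the filter of 10 reads, 13 among members with a mean of at least 50 normalized reads, and 37 at an adjusted p below 0.05. For knock-down with vehicle it was 8, and 15 with log2(normalized reads + 1), 20 with library totals, 19 with the 75th percentile, 3 with only the groups compared, and 19 at an adjusted p below 0.05. For knock-down with doxorubicin it was 6, and 10 with library totals and 18 at an adjusted p below 0.05. Limma-voom called 31, 29, 11 and 8 members in these comparisons, with 18.0%, 18.3%, 4.62% and 4.37% of all genes called higher (12.1%, 12.6%, 2.51% and 2.66% as reported), and kept 6 of the 8 calls for knock-down with vehicle and every call in the other 3. Counts over all genes moved too. The share of all genes called higher with doxorubicin in siNT cells was 18.8% with log2(normalized reads + 1), 24.7% with library totals, 9.42% with the filter of 10 reads and 29.6% at an adjusted p below 0.05. In siMLK4 cells it was 9.70% with the filter and 30.2% at an adjusted p below 0.05. For knock-down with vehicle it was 5.26% with log2(normalized reads + 1), 7.98% with library totals, 6.68% with the 75th percentile (on the same log2 scale), 1.48% with only the groups compared and 12.7% at an adjusted p below 0.05, and for knock-down with doxorubicin it was 5.31% with library totals and 12.7% at that adjusted p.

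The medians of the members were higher under the following 4 settings. For limma-voom, log2(normalized reads + 1), library totals and the 75th percentile they were 1.589, 1.531, 1.765 and 1.650 for doxorubicin in siNT cells, 1.442, 1.397, 1.580 and 1.435 in siMLK4 cells, 0.813, 0.817, 0.957 and 0.906 for knock-down with vehicle, and 0.576, 0.571, 0.658 and 0.578 for knock-down with doxorubicin. With the filter of 10 reads they were 0.996 for doxorubicin in siNT cells and 0.522 for knock-down with vehicle, and with a mean of at least 50 they were 1.071, 0.955 (siMLK4) and 0.547 in that order. The median difference between the doxorubicin responses, 0.06, became −0.165, −0.148, −0.149 and −0.201 under these 4 settings and −0.138 with the filter of 10 reads and −0.138 with a mean of at least 50, which keep the deposited scale and leave fewer members. The cause was not tested. With library totals the median of all genes was 0.244, 0.21, 0.156 and 0.116 in the 4 comparisons. With the 75th percentile it was 0.129, 0.065, 0.105 and 0.036, and with log2(normalized reads + 1) it was 0.007, 0.026, 0.017 and 0.03. The values above include the shifts between these medians.

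Leaving out 1 library gave 21 to 25 called members for doxorubicin in siNT cells, 21 to 25 in siMLK4 cells, 5 to 8 for knock-down with vehicle and 2 to 7 for knock-down with doxorubicin. With the replicate block the counts were 23, 22, 7, 6 and 0 for the difference of responses, so that the block changed 1 call, in knock-down with vehicle. Whether libraries of the same number were paired is not known. Reads shared between near-identical genes, genes near the detection limit and 3 libraries per group limit these values.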
